A study of Homo sapiens with 6 samples.

Results

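The clustered protocadherins are cell surface proteins of the cadherin superfamily whose genes lie in 3 neighbouring arrays, alpha, beta and gamma, on human chromosome 5. The members were taken by gene name, and 54 of the 58735 rows of the gene table matched: 16 of the alpha cluster (PCDHA1 to PCDHA14, PCDHAC1 and PCDHAC2), 16 of the beta cluster and 22 of the gamma cluster. Their transcripts were measured by RNA-seq in wild-type PANC-1 cells, an established line from a human pancreatic ductal adenocarcinoma. Both groups received conditioned medium (CM) from direct co-cultures, at equal cell numbers, of macrophages, which the study's methods derive from the THP-1 line, with PANC-1 cells, and the series text gives 72 h. In CM-Vector (n = 3) the co-cultured PANC-1 cells carried an empty vector, and in CM-MLKL (n = 3) they overexpressed MLKL, the pseudokinase that carries out necroptosis. The recipient cells in both groups were not modified. The comparison asks what the medium from MLKL-overexpressing co-cultures changed in them. All recipient cells are of 1 line, so the replicates, which the study's methods describe as independent experiments, measure the spread between experiments and not between tumours.

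In neurons, each cell switches on a small and partly random set of these genes by choosing among many alternative promoters, and the resulting surface proteins bind only their own kind, which lets a neuron tell its own branches from those of its neighbours. Each alpha or gamma gene has its own large first exon, which encodes the extracellular cadherin repeats, the membrane span and the start of the tail, and this exon is spliced to constant exons that encode a tail common to the whole cluster. Beta genes have a complete reading frame in their own exon and use no constant exon. The C-type members (PCDHAC1, PCDHAC2, PCDHGC3, PCDHGC4 and PCDHGC5) stand at the downstream end of their arrays and are regulated apart from the other members. Outside the nervous system the arrays are known as regions that gain DNA methylation in many carcinomas.

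The 54 members lie on the plus strand in the GENCODE 29 annotation of GRCh38, the alpha members in chr5:140786136-141012347, the beta members in chr5:141051135-141249365 and the gamma members in chr5:141330571-141512981. The alpha constant exons measure 59, 89 and 2718 bases and are annotated to 15, 15 and 14 of the 16 alpha members. The gamma constant exons measure 59, 89 and 2033 bases and are annotated to 22, 22 and 21 of the 22 gamma members. A read from a constant exon alone therefore carries nothing that tells which member it came from, whereas a read that crosses from a variable exon into the first constant exon does. The junctions of the 3 gamma C-type members are shown first because the results turn on PCDHGC5, which is told from PCDHGC3 only upstream of the splice. Each line holds the last 30 bases of the variable exon in lower case and the first 30 bases of constant exon 1, chr5:141494807-141494836, in capitals. The variable stretches end at chr5:141478546 for PCDHGC3, chr5:141487615 for PCDHGC4 and chr5:141491700 for PCDHGC5.
PCDHGC3: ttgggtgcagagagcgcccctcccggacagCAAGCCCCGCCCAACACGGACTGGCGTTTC
PCDHGC4: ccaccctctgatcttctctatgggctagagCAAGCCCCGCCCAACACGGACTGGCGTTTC
PCDHGC5: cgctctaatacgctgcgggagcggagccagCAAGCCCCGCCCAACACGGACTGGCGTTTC

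The same junction is shown for 3 alpha members whose values are described below, with the capitals marking the first 30 bases of alpha constant exon 1, chr5:140978949-140978978. Here the variable exons end at chr5:140809572 for PCDHA4, chr5:140877839 for PCDHA12 and chr5:140969331 for PCDHAC2. Over the 15 alpha and 22 gamma members with an annotated junction, each cluster had 1 distinct sequence at the start of its constant exon.
PCDHA4: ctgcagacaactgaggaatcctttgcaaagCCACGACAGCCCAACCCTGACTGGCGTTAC
PCDHA12: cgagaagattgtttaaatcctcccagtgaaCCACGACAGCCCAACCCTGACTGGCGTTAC
PCDHAC2: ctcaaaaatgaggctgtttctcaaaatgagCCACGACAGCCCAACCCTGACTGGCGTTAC

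The shared part was 2181 of the 4990 annotated exon bases of PCDHGC5 (43.7%), 2181 of the 5432 of PCDHGC3 (40.2%) and 2866 of the 6318 of PCDHAC2 (45.4%). PCDHA4 shared 21.3% of its exon bases, and no beta member shared any with another member. The plot of exon lengths shows this split for all 54 members. The variable exons also resemble each other to different degrees. Of all windows of 100 bases in the variable exon of PCDHGC5, 0 occurred in another member, and the same was found for PCDHGC3, PCDHGC4, PCDHA4 and PCDHAC2. Other members of all 3 clusters were less distinct. In the beta cluster 25.7% of such windows in PCDHB8 recurred elsewhere, chiefly in PCDHB13. So did 24.7% in PCDHB10 and 10.7% in PCDHB9, which pair with each other, but only 2.54% in PCDHB5 and 0 in PCDHB1. The share was 22.5% in PCDHA7, 18.9% in PCDHA6 and 16.4% in PCDHGB4. How the counting assigned reads from shared exons or repeated windows is not given in the sources used here, so a member's count is uncertain to that extent and its part in any result was not tested.

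**Figure D1:**
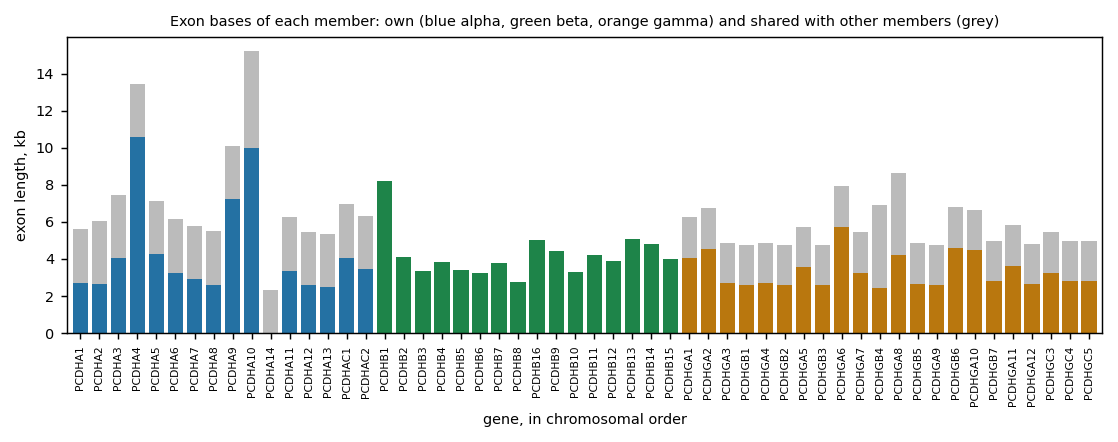
Annotated exon length in kb (vertical axis) of each of the 54 members in chromosomal order (horizontal axis), with bases found in that member only in colour and bases shared with other members in grey. The beta bars hold no grey, PCDHGC5 has 43.7% of its bases shared, and PCDHA14, a pseudogene, lies wholly inside the exons of another member.

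Promoters of most, but not all, of these genes are known for a short conserved element with a CGCT core, at or close to which CTCF binds. RefSeq promoter windows around each start (GRCh38.p14) were matched for 47 of the 54 members, and 3 longer words around that core were searched on both strands after the windows had been viewed, so their shares are descriptions only. The word GATGTCGCT stood in 9 of 13 alpha windows against 0.105% of all 35116 promoter windows, and GGTGGCGCT stood in 13 of 14 beta windows against 0.501%. The word CGCTGTT stood in 14 of 25 gamma windows, from 13 of 20 genes, against 2.26%, and the 4-letter core by itself stood in 70.0% of all windows. PCDHGC5 had no matched window, so whether its promoter holds the element was not examined. CGCTGTT was not found in the windows of PCDHGC3 or PCDHGB7. A match is not a binding site. Stretches of 60 bases are printed for members that were measured here, with the word in capitals, from chr5:140855826-140855885 (PCDHA10), chr5:140875229-140875288 (PCDHA12), chr5:141187059-141187118 (PCDHB9), chr5:141192284-141192343 (PCDHB10) and chr5:141412920-141412979 (PCDHGA10).
PCDHA10: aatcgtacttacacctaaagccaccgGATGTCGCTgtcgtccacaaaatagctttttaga
PCDHA12: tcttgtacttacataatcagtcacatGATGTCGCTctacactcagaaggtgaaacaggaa
PCDHB9: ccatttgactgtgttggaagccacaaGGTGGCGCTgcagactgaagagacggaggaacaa
PCDHB10: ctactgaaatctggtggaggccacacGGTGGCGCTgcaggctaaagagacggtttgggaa
PCDHGA10: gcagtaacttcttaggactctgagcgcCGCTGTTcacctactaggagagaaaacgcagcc

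The libraries held between 15838403 and 17885429 counts. Correlations of log2(CPM + 0.5) between CM-Vector replicate 1 and the other 5 libraries lay between 0.93 and 0.95, and those among the other 5 between 0.96 and 0.99, so this library stands apart, and the results named below as resting on it are given with and without it. CPM denotes counts per 1000000 of a library's total after scaling by trimmed mean of M values (TMM). Cell identity was checked with marker lists. The keratins KRT8, KRT18 and KRT19 were abundant in every library, and CDH1, which encodes E-cadherin, had 4, 18 and 13 counts in CM-Vector and 3, 0 and 2 in CM-MLKL. The 8 epithelial and ductal markers summed to between 5328 and 6119 CPM in CM-Vector and between 3298.5 and 4598 CPM in CM-MLKL. Of the 7 tested, edgeR called 0 at an adjusted p under 0.05 and counted 4 lower at an unadjusted p under 0.05, where 2.98% of all genes tested were lower. DESeq2 called 1 lower at its adjusted p, against 0.477% of all genes tested lower and 0.997% higher. Without CM-Vector replicate 1, edgeR called ELF3 lower (log2 fold change -1.69, adjusted p = 0.00681), where 0.755% of all genes tested were called lower and 1.44% higher. The median log2 fold change of the 8 markers in that fit was -0.78. The 14 macrophage markers summed to between 5.98 and 8.81 CPM in CM-Vector and between 4.48 and 5.86 CPM in CM-MLKL, with PTPRC, MRC1 and CD86 at 0 throughout. CD14 and ITGAM made up most of that sum, and without them it lay between 0.676 and 1.09 CPM in CM-Vector and between 1.49 and 2.09 CPM in CM-MLKL. By mean CPM, 6 of the 14 were higher in CM-MLKL and 5 lower. The 8 neuronal markers summed to between 13.4 and 33.7 CPM in CM-Vector and between 23.0 and 29.2 CPM in CM-MLKL, with DCX and ELAVL4 at 0. The part of these shifts in the results on the protocadherins was not tested. In a bulk sample, fewer cells with a transcript and less of it per cell cannot be told apart.

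Most members were silent or nearly so in PANC-1 cells, and PCDHGC3 carried most of the reads. Between 31 and 36 of the 54 members had at least 1 count in a given library, and 7 had 0 counts in all 6 libraries, namely PCDHA14, PCDHB1, PCDHGA2, PCDHGA3, PCDHGB3, PCDHGA12 and PCDHGC4. Another 34 had from 1 to 76 counts over the 6 libraries together and stayed under the filter on low counts. The remaining 13 were tested, 3 alpha, 7 beta and 3 gamma. Per kb of annotated exon, PCDHGC3 had the highest mean level over the 6 libraries, 8.47 CPM per kb, followed by PCDHB6 (1.43), PCDHGB7 (1.01), PCDHAC2 (0.897), PCDHB2 (0.813) and PCDHB8 (0.791). The divisor holds the shared constant exons of alpha and gamma members, which beta members lack, and how their reads were assigned is not known. The order of PCDHGB7 and PCDHAC2 against the beta members is therefore not read as a result. PCDHGC3 held between 42.2% of all member counts, in CM-Vector replicate 1, and 64.8%, in CM-MLKL replicate 2. The heat map of all members shows few bright rows on a dark field, with PCDHGC3 bright in all 6 libraries.

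**Figure D2:**
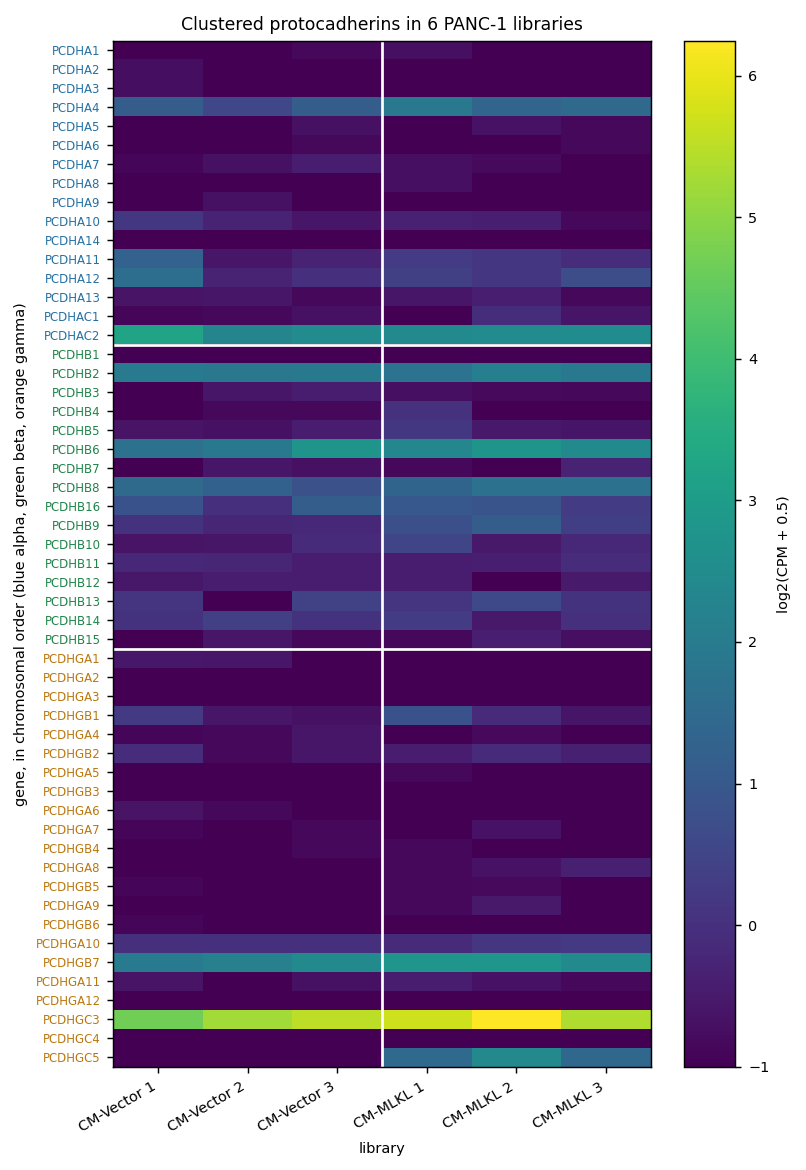
Level of each of the 54 members (rows, in chromosomal order) in each of the 6 libraries (columns), as log2(CPM + 0.5) by colour. PCDHGC3 is the brightest row in every library. PCDHGC5 is at the dark end of the scale in the 3 CM-Vector libraries and less dark, though far below PCDHGC3, in the 3 CM-MLKL libraries.

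PCDHGC5 was the 1 member that passed the test. It is the last C-type gene of the gamma cluster (chr5:141489121-141512979, ENSG00000240764.3), and in the rodent brain it is among the members expressed late in development. Its counts were 0, 0 and 0 in CM-Vector replicates 1 to 3 and 40, 71 and 40 in CM-MLKL replicates 1 to 3, or 2.30, 4.78 and 2.19 CPM. Every CM-MLKL library had counts assigned to PCDHGC5 and no CM-Vector library had any, so the groups did not overlap. The level in CM-MLKL was 3.09 ± 1.47 CPM (SD, n = 3). A count of 0 allows up to 3 counts per library, which is 0.171 CPM on average over the CM-Vector libraries. The CM-MLKL mean of PCDHGC5 was 18.1-fold above this floor, and the lowest CM-MLKL library was 11.9-fold above the highest CM-Vector floor. The call came from edgeR's quasi-likelihood test with Benjamini-Hochberg adjustment over all 14046 genes tested (adjusted p = 0.00811). PCDHGC5 passed the filter on low counts only through the group in which it was present, so its passing and its direction are not separate observations.

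At the background rate, 0.406% of all genes tested were called higher in CM-MLKL and 0.107% lower. Of the 13 tested members, 1 was called higher and 0 lower. At an unadjusted p under 0.05, edgeR counted 2 members higher (PCDHGC5 and PCDHB9) and 0 lower, and DESeq2 and limma-voom gave the same numbers. Over all genes tested, edgeR had 3.24% higher and 2.98% lower at that p, DESeq2 3.38% and 3.05%, and limma-voom 3.39% and 2.57%. The call on PCDHGC5 held without CM-Vector replicate 1, where 1.44% of genes were called higher and 0.755% lower. It was lost without CM-MLKL replicate 2, the library with 71 counts (adjusted p = 0.0997). Over the 13 alternatives its adjusted p ranged from 6.23e-14 to 0.0997. Among the 14046 genes, 2 had 0 counts in all CM-Vector libraries, PCDHGC5 and the long non-coding RNA LINC01943.

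As a share of gamma cluster counts, PCDHGC5 took 3.64% (exact Clopper-Pearson 95% interval 2.61 to 4.92%), 5.39% (4.23 to 6.75%) and 4.42% (3.17 to 5.96%) in CM-MLKL replicates 1 to 3. In the CM-Vector libraries the same share was 0 of 630, 697 and 843 gamma counts, with upper bounds of the same interval at 0.584%, 0.528% and 0.437%. The intervals cover counting error only, and reads within a library are not replicates. PCDHGC5 entered the test only through CM-MLKL, so nothing is read from the distance between the intervals of the groups. The ratio of PCDHGC5 to PCDHGC3 counts was 4.41%, 6.34% and 5.34% in the CM-MLKL libraries. Reads of PCDHGC5 in constant exons cannot be told apart from those of its neighbours in these counts, and whether the 0 and the 40 to 71 counts come from the variable exon was not tested. Its exons overlapped no annotated gene on the opposite strand.

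PCDHGC3, a broadly expressed C-type member of the gamma cluster, had 25.1, 37.1 and 45.5 CPM in CM-Vector and 52.1, 75.4 and 41.0 CPM in CM-MLKL. CM-Vector replicate 3 lay above CM-MLKL replicate 3, so the groups overlapped. The means were 35.9 ± 10.3 and 56.1 ± 17.6 CPM (SD, n = 3 each), a log2 fold change of 0.65 (SE 0.31) that did not pass (edgeR adjusted p = 0.874). PCDHGB7, a B-type member, had 3.43, 3.98 and 5.04 CPM in CM-Vector and 6.31, 6.39 and 4.98 CPM in CM-MLKL. It overlapped between the groups through replicate 3 of each, and its log2 fold change of 0.51 (SE 0.34) did not pass either (edgeR adjusted p = 0.999). PCDHGC4, which stands between PCDHGC3 and PCDHGC5 in the array, had 0 counts in every library, so the C-type members did not share a pattern. Under the filter, PCDHGA10 had the most counts of the gamma cluster, 10, 8 and 8 in CM-Vector and 7, 9 and 12 in CM-MLKL.

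**Figure D3:**
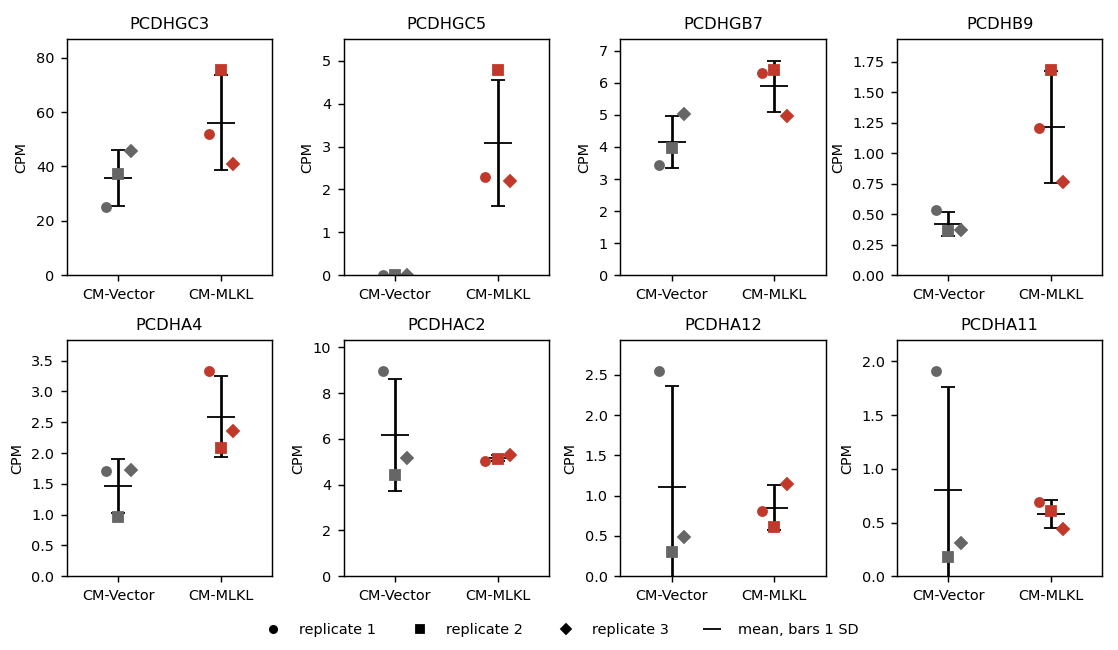
CPM (vertical axes, each with its own scale from 0) of 8 members in CM-Vector (grey) and CM-MLKL (red), with 1 point per replicate, the mean and bars of 1 SD to each side of it. Bars that would reach below 0 are cut off there. PCDHGC5 lies at 0 in CM-Vector and between 2.19 and 4.78 CPM in CM-MLKL, and CM-Vector replicate 1 is the highest point for PCDHAC2, PCDHA12 and PCDHA11.

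The alpha cluster showed no member past the threshold, and its widest spread was within CM-Vector, through replicate 1. PCDHAC2, a C-type member, had 8.96, 4.41 and 5.16 CPM in CM-Vector and 5.05, 5.12 and 5.31 CPM in CM-MLKL. Its 5 other libraries lay between 4.41 and 5.31 CPM, and CM-Vector replicate 1 stood above all of them. The fitted log2 change was -0.26 (SE 0.36, edgeR adjusted p = 0.999), and without CM-Vector replicate 1 it turned to 0.14 (adjusted p = 0.865). PCDHA12 had counts of 52, 5 and 8 in CM-Vector and 14, 9 and 21 in CM-MLKL, and its fitted log2 change of -0.40 (SE 0.73, adjusted p = 0.999) turned to 1.13 without that library (adjusted p = 0.391). PCDHA11, under the filter, repeated the shape with counts of 39, 3 and 5 against 12, 9 and 8, and PCDHA10 with 13, 5 and 3 against 5, 4 and 1. PCDHA10, PCDHA11 and PCDHA12 are neighbours in the array, apart from the pseudogene PCDHA14. Reads of PCDHA12 and PCDHAC2 may include those of opposite-strand genes, which overlap 577 and 256 of their exon bases, since the library kit did not mark strand.

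PCDHA4, unlike PCDHA12 and PCDHAC2, was not highest in CM-Vector replicate 1. It had 1.71, 0.966 and 1.72 CPM in CM-Vector and 3.33, 2.09 and 2.35 CPM in CM-MLKL. All 3 CM-MLKL libraries lay above all 3 CM-Vector libraries, with a log2 fold change of 0.82 (SE 0.43) that did not pass (edgeR adjusted p = 0.923). As a share of alpha counts, PCDHA4 made up 10.6, 14.5 and 20.1% in CM-Vector and 31.2, 21.7 and 24.4% in CM-MLKL, a share on which no test was made.

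In the beta cluster, whose members share no constant exon, PCDHB6 and PCDHB2 had the highest levels per kb. PCDHB6 had 2.74, 3.32 and 6.203 CPM in CM-Vector and 4.65, 6.19 and 4.92 CPM in CM-MLKL. PCDHB2 was the steadiest member, with 3.57, 3.26 and 3.32 CPM in CM-Vector and 2.87, 3.84 and 3.28 CPM in CM-MLKL, although 620 of its exon bases are also annotated on the opposite strand. PCDHB8 had 2.35, 1.87 and 1.23 CPM against 2.01, 2.76 and 2.79 CPM. All 3 overlapped between the groups, and none passed (edgeR adjusted p = 0.999 for each, log2 fold changes 0.36, -0.02 and 0.47). PCDHB16 and PCDHB14 had log2 fold changes of 0.03 (SE 0.55) and -0.41 (SE 0.56), also with overlapping groups.

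PCDHB9 had the smallest p of the beta cluster. Its counts were 11, 6 and 6 in CM-Vector and 21, 25 and 14 in CM-MLKL, or 0.538, 0.362 and 0.368 CPM against 1.21, 1.68 and 0.766 CPM. The groups did not overlap, and the fitted change was 2.81-fold (log2 1.49, SE 0.51). PCDHB9, like PCDHGC5, passed the filter on low counts only through CM-MLKL, since 1 CM-Vector library reached the cutoff, so its passing and its direction are not separate observations. It did not pass the adjustment (edgeR unadjusted p = 0.0144, adjusted p = 0.479) and did not pass under any of its 12 alternatives, over which the adjusted p ranged from 0.172 to 0.9998. PCDHB10, with which PCDHB9 shares sequence, had 3, 3 and 7 counts in CM-Vector and 16, 3 and 7 in CM-MLKL and stayed under the filter. Another annotated gene on the same strand overlaps 337 exon bases of PCDHB9, 432 of PCDHB16 and 221 of PCDHB8, and 815 bases of PCDHB16 are also annotated on the opposite strand. In all, 3 of the 13 tested members (PCDHGC5, PCDHB9 and PCDHA4) had every CM-MLKL library above every CM-Vector library and 0 had the reverse. Over all genes tested, 6.43% lay in the first order and 5.5% in the second. Because PCDHGC5 and PCDHB9 were tested only through the group in which they were high, nothing is read from this count.

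**Figure D4:**
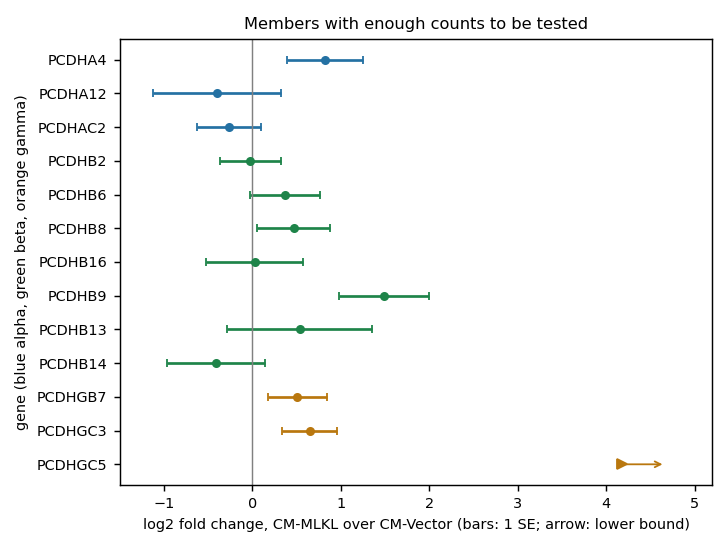
Log2 fold change of CM-MLKL over CM-Vector (horizontal axis) for the 13 tested members in chromosomal order, with bars of 1 SE from edgeR. PCDHGC5 is drawn as an arrow at 4.18, the log2 ratio of its CM-MLKL mean to the mean CM-Vector floor. PCDHB9 stands at 1.49, and the other 11 members lie between -0.41 and 0.82.

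Of the 13 tested members, 9 had a positive and 4 a negative log2 fold change, with a median of 0.47. The median over all genes tested was -0.04. By cluster, the median was -0.26 over the 3 alpha, 0.36 over the 7 beta and 0.65 over the 3 gamma members. Without CM-Vector replicate 1 the alpha median turned to 0.98, the beta median was 0.17, the gamma median 0.47 and that of all genes tested 0.05. The signs and medians hold only members that passed the filter, which PCDHGC5 and PCDHB9 did only through CM-MLKL. The same holds for PCDHB16, where 2 CM-Vector and 3 CM-MLKL libraries reached the cutoff. These signs and medians describe the members without testing them, and nothing is read from their distance to the median of all genes.

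Summed over all members, tested or not, the gamma cluster had 30.8, 42.1 and 51.8 CPM in CM-Vector and 63.1, 88.7 and 49.6 CPM in CM-MLKL. CM-MLKL replicate 3 fell inside the CM-Vector range, and the ratio of the means was 1.61 (41.6 ± 10.5 against 67.1 ± 19.9 CPM, SD, n = 3 each). Without PCDHGC5 the ratio was 1.54, and PCDHGC3 made up between 81.4 and 88.1% of gamma counts in every library. The beta cluster had 12.5, 11.6 and 15.9 CPM in CM-Vector and 16.2, 18.04 and 15.2 CPM in CM-MLKL, with overlapping groups and a ratio of 1.24. The alpha cluster had 16.2, 6.64 and 8.54 CPM in CM-Vector and 10.7, 9.62 and 9.63 CPM in CM-MLKL. Its ratio was 0.954 with all libraries, and its log2 ratio of -0.07 became 0.42 without CM-Vector replicate 1. That library had the highest alpha total and the lowest gamma total of the 6. No test was made of these sums.

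**Figure D5:**
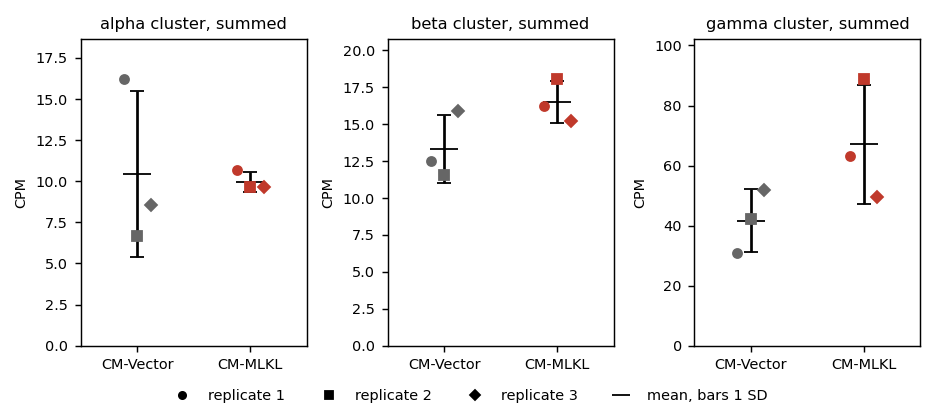
Summed CPM of all members of the alpha, beta and gamma clusters (vertical axes from 0, each with its own scale) in CM-Vector (grey) and CM-MLKL (red), with 1 point per replicate, the mean and bars of 1 SD. The groups overlap in all 3 panels, and CM-Vector replicate 1 is highest for alpha at 16.2 CPM and lowest for gamma at 30.8 CPM.

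Non-clustered protocadherins also have cadherin repeats, but they are single genes without constant exons. Of the 12 in the table, 5 had 0 counts throughout and 2 were tested. PCDH1, an adhesion protein of epithelia whose gene lies downstream of the gamma cluster on the opposite strand (chr5:141853111-141879246), had 16.8, 17.7 and 16.8 CPM in CM-Vector and 48.7, 70.1 and 39.8 CPM in CM-MLKL. The groups lay far apart, and PCDH1 was 3.09-fold higher in CM-MLKL (log2 1.63, SE 0.28, edgeR adjusted p = 0.0335). With 1 library left out it kept a log2 fold change between 1.37 and 1.80, and its adjusted p exceeded 0.05 without CM-Vector replicate 2 (0.158) or 3 (0.136) and without CM-MLKL replicate 1 (0.156) or 2 (0.108). PCDH7 had 39.3, 7.97 and 10.2 CPM in CM-Vector and 7.63, 5.59 and 7.33 CPM in CM-MLKL, with CM-Vector replicate 1 far above the rest, and did not pass (log2 -1.48, SE 0.55, adjusted p = 0.562). Without that library its log2 fold change was -0.38 (SE 0.26, adjusted p = 0.559).

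The genes that act on the arrays or on their proteins gave no calls. Of 11 genes of CTCF and cohesin, which fold the arrays and bring enhancers to chosen promoters, 0 of 11 tested passed in either direction, with a median log2 fold change of -0.18. CTCF itself had 19.8, 14.2 and 19.7 CPM against 14.8, 11.8 and 14.3 CPM (adjusted p = 0.999), and WAPL, which releases cohesin, had 43.5, 20.8 and 19.7 CPM against 23.5, 14.7 and 21.6 CPM. The log2 fold change of WAPL was -0.49 (SE 0.36) and became 0.0076 (SE 0.26) without CM-Vector replicate 1. Of 13 tested genes of silencing and DNA methylation, 0 passed, with a median of -0.29. DNMT3A, a de novo DNA methyltransferase, had 5.24, 6.58 and 6.69 CPM against 8.55, 9.49 and 8.42 CPM (log2 0.52, SE 0.30, adjusted p = 0.977), and SMCHD1, which keeps parts of the arrays silent in mice, had 21.5, 8.09 and 10.1 CPM against 7.69, 7.94 and 11.7 CPM. CM-Vector replicate 1 alone stood above the CM-MLKL range of SMCHD1, and its log2 fold change of -0.54 (SE 0.40) became 0.03 (SE 0.27) without that library. The medians of the CTCF and silencing lists turned to 0.16 and 0.08 without it.

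Of 21 tested genes for cytoplasmic partners and proteolytic processing of the protocadherins, 0 passed, with a median of 0.09, or 0.24 without CM-Vector replicate 1. The smallest p belonged to NCSTN, the gamma-secretase subunit nicastrin, at a log2 fold change of 0.44 (SE 0.24) and an adjusted p of 0.938, and to CYFIP1, a subunit of the WAVE complex that binds some protocadherin tails, with 0.39 (SE 0.22, adjusted p = 0.951). edgeR, DESeq2 and limma-voom each gave 0 calls in these 3 lists, and 0 genes of them had an unadjusted p under 0.05 by any of the 3 tools.

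The list of neighbouring genes, which does not hold PCDH1, gave 0 calls among 18 tested, with a median of -0.02 that was 0.02 without CM-Vector replicate 1. TAF7, a subunit of the general transcription factor TFIID whose gene lies between the beta and gamma clusters on the opposite strand (chr5:141260225-141320821), had 83.7, 54.3 and 58.2 CPM against 68.2, 30.02 and 72.3 CPM (log2 -0.20, SE 0.34, edgeR adjusted p = 0.999, and log2 0.04 without CM-Vector replicate 1). SLC25A2, a mitochondrial carrier gene in the same gap, had 0 counts in every library. The smallest p was that of CD14, with 4.11, 3.86 and 5.40 CPM against 2.41, 2.96 and 1.91 CPM (adjusted p = 0.727), and it was the 1 neighbour under an unadjusted p of 0.05 by edgeR, DESeq2 and limma-voom, each of which gave 0 adjusted calls. NDUFA2, a subunit of mitochondrial complex I, had a log2 fold change of -0.47 (SE 0.29). The 4 pseudogenes of the arrays stayed under the filter, and PCDHB17P had the most counts, 7, 4 and 9 in CM-Vector and 21, 10 and 6 in CM-MLKL. PCDHGB8P had 4 counts and PCDHB19P 1, all of them in CM-Vector replicate 1, and PCDHB18P had 0.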

How the data were processed

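The authors extracted RNA with Trizol, selected poly(A) RNA, prepared libraries with a NEBNext Ultra kit, which does not mark strand, and sequenced them on a NovaSeq instrument. Their methods name fastp for trimming and StringTie for assembly. Neither the methods nor the labels used here name the aligner, the genome build or the counting tool. The deposited file holds raw counts per gene for 6 libraries, and 58708 of its 58735 names matched GENCODE 29, which supplied gene IDs and GRCh38 coordinates. The CM-MLKL group was compared with CM-Vector (n = 3 each) on the deposited counts with edgeR 4.0.16 in R 4.3.3, using filterByExpr (minimum count 10, minimum total 15), TMM scaling and the two-sided quasi-likelihood test, adjusted by Benjamini-Hochberg over all 14046 genes tested at 0.05. Each SE is the absolute log2 fold change divided by the square root of the test's F. Cluster totals are summed counts as CPM. The scripts were tested on simulated counts.

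Every member was counted. Named with values were, in each cluster, up to 5 tested members with the highest CPM, up to 4 with the smallest p, every member past the threshold and the untested member with the most counts; from each gene list, the genes past the threshold or otherwise the 2 with the smallest adjusted p; and TAF7 and the pseudogenes. PCDHA10, PCDHGC4, PCDH7 and SLC25A2 were added after their values were seen. The members and the gene lists were chosen with earlier results of these data known. Alternatives were DESeq2 size factors, library size only, DESeq2 1.42.0, limma-voom (limma 3.58.1), no filter, a minimum of 1 CPM in 3 libraries, leaving out each library, and a replicate block. Protein sequences were not used here.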

Additional observations from a re-analysis of the deposited data

How the results depend on the processing

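Among the 13 tested members, 1 (PCDHGC5) was called under every alternative except without CM-MLKL replicate 2, so leaving out 1 library gave between 0 and 1 called members. With the replicate number as a replicate block, 1 member was called (PCDHGC5, adjusted p = 2.44e-08). Same-numbered libraries deviated from their group means with correlations of 0.19, 0.18 and -0.34, so the numbers were not taken as pairs, although over all genes the block raised the calls from 57 higher and 15 lower to 112 and 43. DESeq2 called 140 and 67 genes, the fit without a filter 149 and 100, and the fit without CM-Vector replicate 1 called 206 and 108; without CM-MLKL replicate 2 there were 14 and 4. Over the 6 gene lists, the 1 call (PCDH1) became 2 with no filter on low counts, where PCDH7 also passed (log2 fold change -1.46, adjusted p = 0.00996), and between 0 and 1 when a library was left out. The log2 ratio of the alpha total ranged from -0.30 to 0.42 with 1 library left out, that of beta from 0.23 to 0.46 and that of gamma from 0.44 to 0.88. Members that did not pass the test changed sign 11 times, over 7 of the 13 fits. With 1 library left out, log2 fold changes ranged from -0.83 to 1.13 for PCDHA12 and from -0.44 to 0.14 for PCDHAC2. They ranged from -0.13 to 0.086 for PCDHB2, from -0.33 to 0.41 for PCDHB16 and from -0.017 to 1.18 for PCDHB13. PCDHA12 was also at 0.12 with limma-voom and at 0.047 with the replicate block, and PCDHB16 at -0.019 with library size only. The causes of these changes were not tested. At this depth 41 of the 54 members stayed under the filter.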

Other observations

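Under the filter, 10 members had counts in 1 group only, 6 of them in CM-Vector and 4 in CM-MLKL. The share of all genes under the filter with this pattern was not worked out, so nothing is read from these numbers. The 4 with the most counts were picked out after their values were seen. PCDHGA8 had 0, 0 and 0 counts in CM-Vector and 1, 2 and 5 in CM-MLKL, and PCDHGA9 had 0, 0 and 0 against 1, 3 and 0. PCDHGA1 had 4, 3 and 0 counts in CM-Vector and 0, 0 and 0 in CM-MLKL, and PCDHGA6 had 3, 1 and 0 against 0, 0 and 0. These counts are near the floor of 3 counts per library, and none of the 4 genes entered the test.

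With PCDHGC3 and PCDHGC5 left out, the remaining gamma members summed to 5.73, 5.01 and 6.26 CPM in CM-Vector and 8.72, 8.55 and 6.40 CPM in CM-MLKL, so the groups no longer overlapped. This sum was also chosen after its values were seen and has no test. PCDHGB7 made up most of it in every library, with 3.43, 3.98 and 5.04 CPM in CM-Vector and 6.31, 6.39 and 4.98 CPM in CM-MLKL. By itself PCDHGB7 overlapped between the groups. With PCDHA11 and PCDHA12 left out, the alpha total was still highest in CM-Vector replicate 1, at 11.7 CPM against a range of 6.16 to 9.18 CPM over the other 5 libraries.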
